A study of Mus musculus with 28 samples.

Results

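The comparison described here set 2 arrays of mouse embryonic stem (ES) cells carrying DICER1 D1709N directly against 2 arrays of ES cells carrying DICER1 E1813Q, across all genes measured. These 4 arrays, of 28 in the series, were chosen by their titles, without use of any measured value. Both mutants are labelled as hotspot mutants. Both transgenes were delivered with the pLD-puro-PGKnvA vector into cells whose own Dicer genotype was Dicer-/-, so a Dicer-null background, the vector and its selection cassette are common to all 4. Wild-type DICER1 in the same vector and the same Dicer-/- cells (n = 2 arrays) served as the background level. In the deposited table these arrays have the same mean as wild-type DICER1 expressed from the second vector, ENvA, so every value set against wild type rests on a level tied to the ENvA arrays. RNA was total RNA from cells in log-phase growth, measured on Affymetrix Mouse Gene ST arrays, and levels below are deposited log2 expression values. The labels do not say whether a line was a clone or a pool, nor whether the arrays of a group stand for separate cultures. All p-values thus rest on the spread among arrays alone, part or all of which may be technical.

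DICER1 is the ribonuclease that cuts microRNA (miRNA) precursors into mature miRNA duplexes. It has 2 catalytic domains, RNase IIIa and RNase IIIb, and the RNase IIIb domain makes the cut that frees the strand from the 5′ arm of the hairpin, called the 5p strand. The aspartate and the glutamate replaced in these mutants are acidic residues of the RNase IIIb centre that hold the metal ions needed for that cut, and both are recurrently mutated in DICER1-related tumours. The dominant miRNAs of mouse ES cells, the miR-290 and miR-302 families, act mainly through 3p strands, whereas let-7 miRNAs are 5p strands. The question of the comparison is whether ES cells that depend on one or the other of these mutants differ in gene expression.

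Across 13956 genes that passed an expression filter, 1525 (10.9%) were called different between the mutants at an adjusted p under 0.05 in limma (a moderated linear model, with Benjamini-Hochberg adjustment over all genes tested). Of these, 845 (6.05%) were higher in D1709N and 680 (4.87%) were lower. With each array centred on its own median the split was 1059 higher and 501 lower, so the balance of directions depends on scaling. Most differences were small. A change of at least 1.5-fold was reached by 47 called genes (0.337%), 13 higher and 34 lower in D1709N, and at least 2-fold by 3, all lower, namely Pmp22, Lefty2 and the small nucleolar RNA gene Snora44. Against wild-type DICER1, which both comparisons share, 5576 genes (40%) were called in D1709N, 21.5% of genes higher and 18.5% lower, and 5661 (40.6%) in E1813Q, 21.1% higher and 19.5% lower. Both D1709N arrays lay above both E1813Q arrays for 3673 of the 13956 genes (26.3%) and below both for 3319 (23.8%), and 1521 of the 1525 called genes were among them. With the 4 arrays fitted alone, which leaves a weaker estimate of the spread, 931 genes were called, 720 of them among the 1525.

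**Figure D1:**
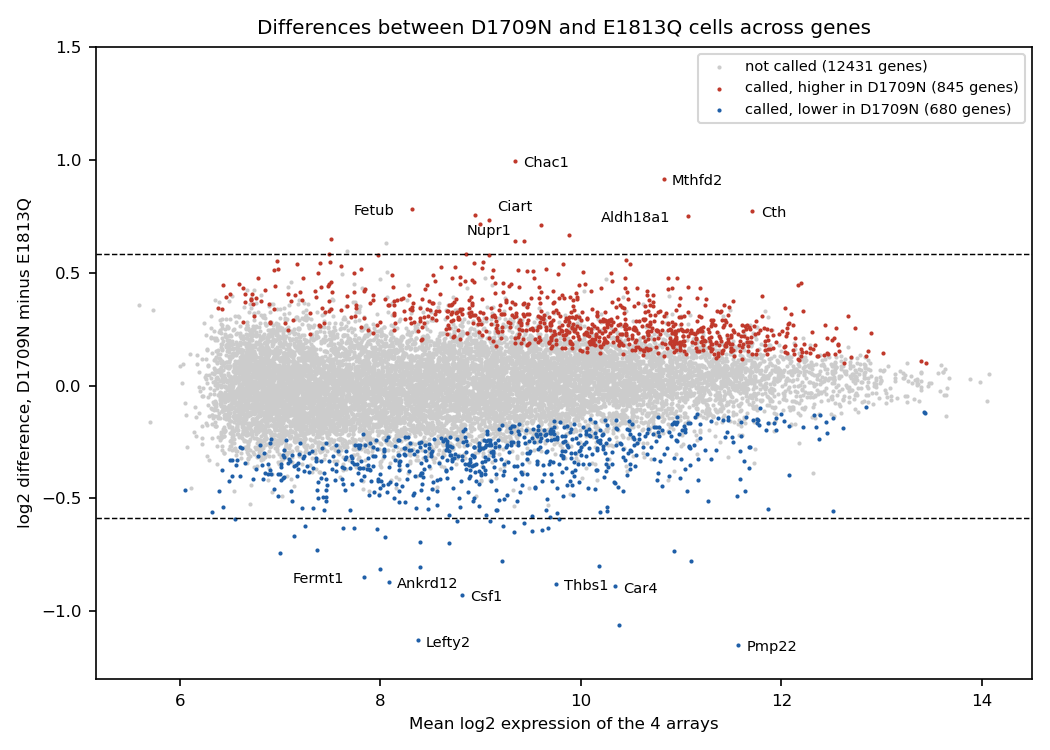
Each point is 1 of 13956 genes, with the mean log2 expression over the 4 arrays on the x axis and the log2 difference of D1709N minus E1813Q on the y axis. Red points are the 845 genes called higher in D1709N and blue points the 680 called lower, and the dashed lines mark 1.5-fold. Few points lie beyond the dashed lines, with Chac1 and Mthfd2 highest and Pmp22 and Lefty2 lowest.

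The cells of both mutants carried the marks of ES cells. Pou5f1, Sox2, Nanog, Zfp42, Esrrb and Dppa5a lay between 10.6 and 13.7 in every one of the 4 arrays, and none of them was called different. Array medians were between 7.23 and 7.27. The standard deviation between the 2 arrays of a mutant had a median over genes of 0.0683 in D1709N and 0.0620 in E1813Q. Dicer1, read first because it is the manipulated gene, was 8.97 and 8.84 in D1709N, 8.97 and 9.01 in E1813Q, and 9.30 and 9.32 with wild-type DICER1. Both D1709N arrays lay just below both E1813Q arrays, and the difference of -0.08 (SE, 0.0748) was not called (limma adjusted p = 0.528). The labels do not give the species of the transgene, so this mouse probe set does not measure the transgene with certainty.

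Genes of the amino acid stress response were higher in D1709N. ATF4 is a transcription factor whose protein is made when amino acids are short or the endoplasmic reticulum is under stress, and it raises genes for amino acid synthesis, uptake and tRNA charging. Of 29 tested genes in a list of ATF4 and unfolded protein response genes, 11 were called higher in D1709N and 0 lower, where 6.05% of all genes were called higher. The median difference of the 29 was 0.19, against 0.00 for all genes tested (0.0042), and 24 of them were positive. Without D1709N replicate 1 the list held 9 called higher and 1 lower, and without either of the other 3 arrays in turn between 10 and 12 were higher and 0 lower.

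The largest difference in favour of D1709N was that of Chac1, which encodes an enzyme that degrades glutathione and is a standard marker of ATF4 activity. Chac1 read 9.96 and 9.71 in D1709N, 8.70 and 8.98 in E1813Q, and 8.44 and 8.57 with wild-type DICER1. Both D1709N arrays lay above all others of this vector, with a difference between the mutants of 0.99 (SE, 0.0847, limma adjusted p = 3.85e-08), or 1.99-fold.

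Enzymes that make amino acids and one-carbon units followed. Mthfd2, a mitochondrial folate enzyme, read 11.29 and 11.28 in D1709N, 10.27 and 10.47 in E1813Q, and 10.78 and 10.78 with wild-type DICER1. The wild-type level lay between the mutants, and the mutants differed by 0.92 (SE, 0.129, limma adjusted p = 5.93e-05). Cth, which makes cysteine from cystathionine, read 12.17 and 12.03 in D1709N against 11.36 and 11.29 in E1813Q and 11.23 and 11.19 with wild-type DICER1 (difference 0.77, SE 0.0559, limma adjusted p = 6.78e-09). Aldh18a1, the first enzyme of proline synthesis, read 11.46 and 11.43 against 10.72 and 10.67, with 10.68 and 10.69 in wild type (difference 0.75, limma adjusted p = 5.92e-08). For Cth and Aldh18a1 the E1813Q arrays were close to wild type and the D1709N arrays stood above both. E1813Q minus wild type was 0.11 for Cth (limma adjusted p = 0.114) and 0.01 for Aldh18a1 (0.954).

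Nupr1, a small stress-induced chromatin protein, read 9.28 and 9.36 in D1709N, 8.51 and 8.62 in E1813Q, and 8.78 and 8.62 with wild-type DICER1 (difference 0.76, limma adjusted p = 5.76e-08). Pck2, the mitochondrial form of phosphoenolpyruvate carboxykinase, read 9.37 and 9.35 in D1709N and 8.69 and 8.59 in E1813Q, with 8.65 and 8.69 in wild type (difference 0.72, limma adjusted p = 2.65e-07). Psat1 and Shmt2, of serine and glycine synthesis, were higher by 0.45 and 0.40, Trib3, a pseudokinase that dampens ATF4 signalling, by 0.38, and Herpud1, of endoplasmic reticulum quality control, by 0.45. The Herpud1 arrays came close to meeting, with 9.58 and 9.33 in D1709N and 8.74 and 9.25 in E1813Q.

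Atf4 itself showed a different relation to wild type. It read 10.07 and 9.98 in D1709N, 9.54 and 9.51 in E1813Q, and 9.89 and 9.95 with wild-type DICER1. The mutants differed by 0.49 (SE, 0.061, limma adjusted p = 8.97e-06), E1813Q lay 0.40 below wild type (E1813Q minus wild type, -0.40, limma adjusted p = 1.27e-05), and D1709N minus wild type was 0.10 (0.208). Other well-known members of the list were not called. Asns, asparagine synthetase, differed by 0.05 (limma adjusted p = 0.277), Ddit3, the stress factor CHOP, by 0.03 (0.865), and Hspa5, the chaperone BiP, by 0.07 (0.538).

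**Figure D2:**
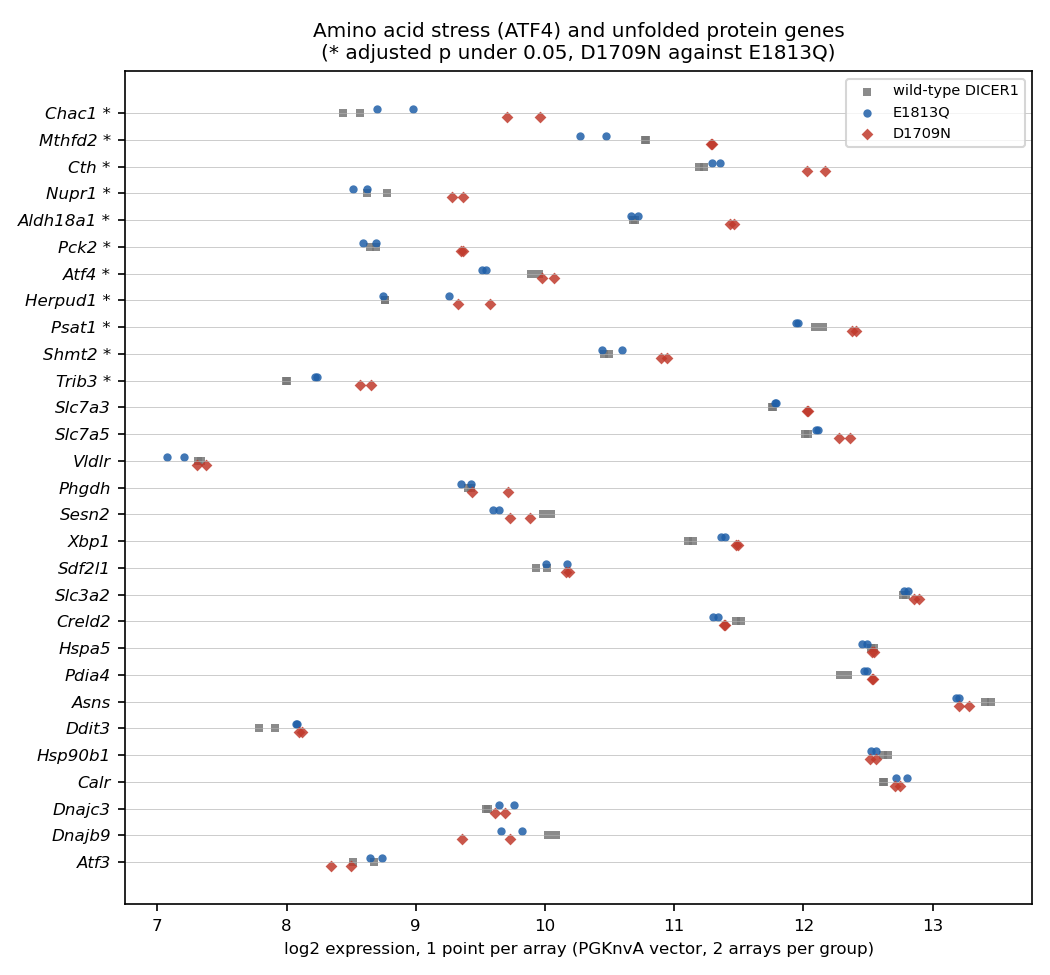
Log2 expression of the members of the amino acid stress and unfolded protein list that are shown by name, 1 point per array, in D1709N, E1813Q and wild-type DICER1 cells with the PGKnvA vector (n = 2 arrays each). A star marks a gene called between the mutants. For Chac1, Cth, Aldh18a1 and Pck2 the D1709N points stand to the right of the other groups, whereas for Atf4 the E1813Q points stand to the left.

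The mean level of the 29 genes was 10.69 and 10.76 in the D1709N arrays and 10.42 and 10.47 in the E1813Q arrays, without overlap. It was 10.46 ± 0.00 (SD 0.00233, n = 2) with wild-type DICER1 in the same vector and 10.45 ± 0.02 (SD, n = 3) with the eGFP control vector. The 3 mutants expressed from the other vector, ENvA, lay between these levels, with 10.60 ± 0.02 (n = 4) in D1709A, 10.61 ± 0.02 (n = 3) in D1810Y and 10.64 ± 0.03 (n = 3) in E1705K. The parental lines without a transgene were higher than all of these, with 11.11 ± 0.01 (n = 3) for the Dicer-null and 11.11 (n = 2) for the Dicer wild-type parent. Levels across vectors and lines are set side by side here without a test.

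ATF4 binds DNA with C/EBP partners at a composite element whose core reads TGATGNAA, where N is any base. In RefSeq promoter windows of 300 bases around the start site (GRCm38.p6), the core was present on either strand in 8 of 28 windows of tested list members (28.6%), in 303 of 14022 windows of all genes tested (2.16%) and in 1304 of 32851 windows in all (3.97%). The 11 called members had 11 windows, from 10 genes, and 5 of these windows held it. Cth had no window, and those of Mthfd2, Aldh18a1, Atf4, Psat1 and Shmt2 held no core. Stretches of 40 bases are shown for the 5 genes with the core, which is in capitals. The strand that holds the core is written 5′ to 3′.
Chac1, chr2:119351033-119351072, minus strand: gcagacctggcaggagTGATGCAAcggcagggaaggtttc
Herpud1, chr8:94386301-94386340, minus strand: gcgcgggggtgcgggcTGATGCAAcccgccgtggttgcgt
Nupr1, chr7:126625557-126625596, plus strand: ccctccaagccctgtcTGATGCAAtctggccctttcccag
Pck2, chr14:55540147-55540186, minus strand: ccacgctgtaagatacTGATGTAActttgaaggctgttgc
Trib3, chr2:152344023-152344062, plus strand: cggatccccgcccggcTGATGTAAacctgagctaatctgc
The core lies 193 bases before the start site in Chac1, 112 in Herpud1, 110 in Nupr1 and 103 in Pck2. Chac1, Herpud1 and Nupr1 share the form TGATGCAA, and Pck2 and Trib3 have TGATGTAA. A match is a description of the letters and does not show binding in these cells. The list was made up of ATF4 and unfolded protein response genes, so its share of matches does not bear on the mutants.

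Cytosolic aminoacyl-tRNA synthetases, the enzymes that load amino acids onto tRNAs, were higher in D1709N almost throughout. This list was written after the values were seen. Of 21 tested members (synthetases and their scaffold proteins), 15 were called higher and 0 lower (71.4% called, against 10.9% of all genes). All 21 differences were above 0, with a median of 0.32, against 0.0042 for all genes tested. Between 13 and 14 were called higher when any 1 of the 4 arrays was left out. The synthetases of mitochondria, a list also written afterwards, had 2 of 16 called higher (12.5%), Cars2 (0.28) and Rars2 (0.25), with a median of 0.04.

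Nars, for asparagine, had the smallest adjusted p of the group. It read 12.41 and 12.44 in D1709N, 11.96 and 11.98 in E1813Q, and 12.16 and 12.18 with wild-type DICER1 (difference 0.46, SE 0.0388, limma adjusted p = 3.85e-08). Wild type lay between the mutants, with D1709N 0.26 above it and E1813Q minus wild type at -0.20. Tars, for threonine, read 10.30 and 10.25 in D1709N, 9.72 and 9.83 in E1813Q, and 10.30 and 10.36 in wild type. There the E1813Q arrays were the ones that stood apart (E1813Q minus wild type, -0.55, limma adjusted p = 1.61e-05), while D1709N minus wild type was -0.05 (0.683). Yars, for tyrosine, read 11.22 and 11.17 in D1709N, 10.71 and 10.73 in E1813Q, and 10.70 and 10.70 in wild type. For Yars it was D1709N that stood apart, by 0.50 from wild type (limma adjusted p = 1.61e-05). Cars (0.48), Mars1 (0.43), Gars (0.40), Wars (0.39), Lars (0.38) and Hars (0.38) were higher as well, and Qars, for glutamine, differed by 0.00 (limma adjusted p = 0.978).

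The core of the composite element was found in 4 of 15 promoter windows of the tested synthetase genes (26.7%), which cover 14 of the 21 genes. All 4 windows belong to genes called higher, as do 11 of the 15, so the matches do not set the called genes apart. The core is shown here in the same way for the 4 genes that hold it.
Tars, chr15:11399650-11399689, plus strand: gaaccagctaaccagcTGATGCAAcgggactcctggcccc
Yars, chr4:129189890-129189929, plus strand: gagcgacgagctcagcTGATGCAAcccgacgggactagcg
Iars, chr13:49682121-49682160, minus strand: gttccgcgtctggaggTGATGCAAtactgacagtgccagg
Gars, chr6:55037955-55037994, minus strand: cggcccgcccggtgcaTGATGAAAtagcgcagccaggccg
Tars, Yars and Iars hold the same form, TGATGCAA, as Chac1, Herpud1 and Nupr1. That form was in 78 of 14022 windows of all genes tested (0.556%).

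**Figure D3:**
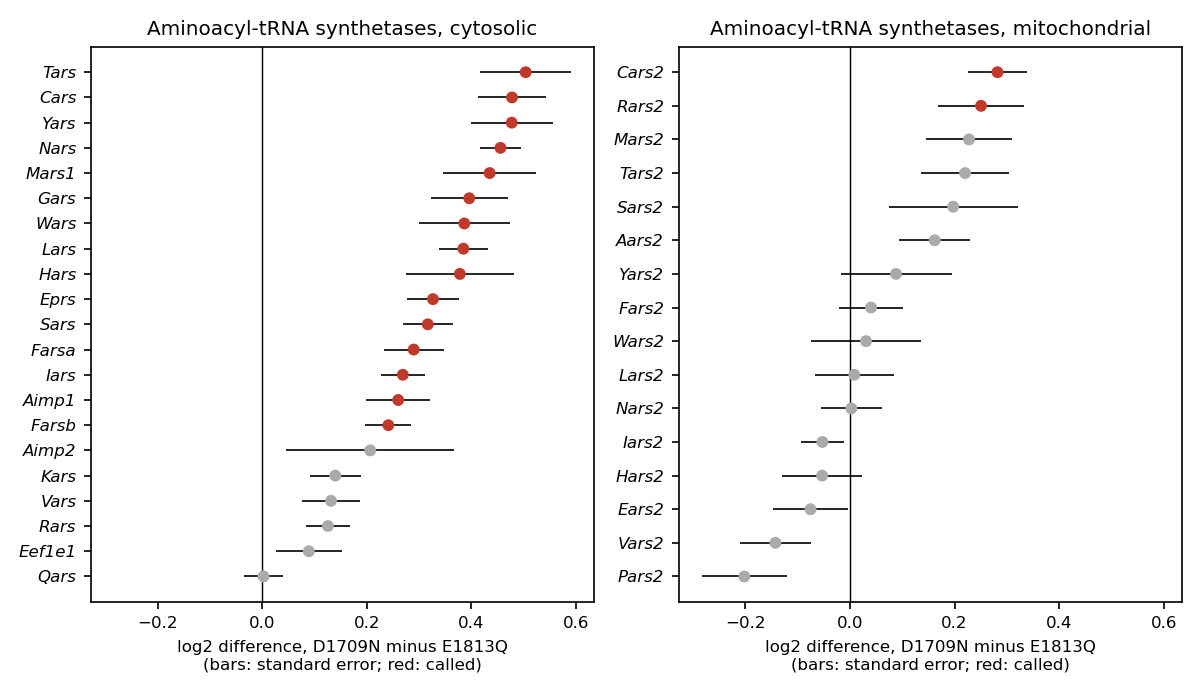
Log2 difference of D1709N minus E1813Q for 21 cytosolic (left) and 16 mitochondrial (right) aminoacyl-tRNA synthetase and scaffold genes, with bars for 1 standard error of the fit. Red points are called genes, 15 on the left and 2 on the right. The cytosolic points run from Qars near 0 to Tars at 0.50, and the mitochondrial points lie on both sides of 0.

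The mean level over the 21 genes was 11.24 and 11.26 in D1709N and 10.95 and 10.95 in E1813Q, with 11.07 and 11.09 for wild-type DICER1 in the same vector. It was 10.91 ± 0.01 (SD, n = 3) with the eGFP vector. D1810Y and E1705K, in the ENvA vector, were at 11.23 ± 0.01 (n = 3) and 11.23 ± 0.03 (n = 3), and D1709A was at 11.18 ± 0.09 (n = 4), with a lowest array of 11.05. The Dicer-null parental line was at 11.05 ± 0.03 (n = 3) and the Dicer wild-type line at 11.36 ± 0.02 (n = 2), above D1709N.

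Transport and synthesis of amino acids showed more selective differences. Of 29 amino acid transporter genes, a list written after the values were seen, 4 were called higher and 1 lower. That is 17.2% called, against 10.9% of all genes, with a median of 0.02. Slc7a1, the carrier of cationic amino acids, read 10.25 and 10.18 in D1709N, 9.63 and 9.46 in E1813Q, and 9.77 and 9.84 in wild type (difference 0.67, limma adjusted p = 9.71e-04). Slc1a4, a carrier of alanine and serine (0.64), Slc6a9, a glycine carrier (0.58), and Slc1a5, a glutamine carrier (0.38), were the other 3. Slc38a4 was lower (-0.18). Against wild type, 16 of the 29 transporters were called higher and 0 lower in each mutant, with medians of 0.29 in D1709N and 0.23 in E1813Q. Among all genes 21.5% were higher than wild type in D1709N and 21.1% in E1813Q. Of 22 enzymes of serine, glycine, proline and one-carbon synthesis, likewise listed afterwards, 9 were higher and 0 lower (40.9% called). Among them were Gpt2, alanine aminotransferase (0.54), and Psph, the last step of serine synthesis (0.26). Mthfd2, Cth, Aldh18a1, Pck2, Psat1 and Shmt2 are in this list and in the ATF4 list.

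The remaining large differences in favour of D1709N came from genes of other functions. Ccnd2, a D-type cyclin, read 10.04 and 9.88 in D1709N, 9.22 and 9.27 in E1813Q, and 8.56 and 8.54 with wild-type DICER1, so both mutants lay above wild type and D1709N farther (difference 0.71, SE 0.138, limma adjusted p = 0.00168). Spink1, a secreted protease inhibitor, followed the same order, with 7.91 and 7.76 in D1709N, 7.12 and 7.25 in E1813Q, and 6.31 and 6.12 in wild type (difference 0.65, limma adjusted p = 0.00469). The wild-type level of Spink1 is below the filter level of 6.42. Fetub, a secreted inhibitor of proteases (0.78), Ciart, a repressor of the circadian clock (0.74), and Fam136a, a mitochondrial protein (0.64), were also among the 14 largest. Each of these 3, and Spink1, lost its call when at least 1 particular array was left out, unlike Chac1, Mthfd2, Cth, Nupr1, Aldh18a1, Pck2, Ccnd2, Slc7a1, Slc1a4 and Slc6a9.

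On the other side, genes higher in E1813Q were led by Pmp22 and Lefty2. Pmp22, a membrane protein of myelin and of epithelial junctions, read 11.12 and 10.87 in D1709N, 12.13 and 12.16 in E1813Q, and 10.85 and 10.76 with wild-type DICER1. The E1813Q arrays stood above the other groups, and D1709N was 2.22-fold lower than E1813Q (log2 difference -1.15, SE 0.232, limma adjusted p = 0.00242). Lefty2, a secreted antagonist of Nodal signalling, read 7.72 and 7.90 in D1709N, 8.93 and 8.94 in E1813Q, and 7.78 and 7.63 in wild type. D1709N was 2.19-fold lower (log2 difference -1.13, SE 0.0944, limma adjusted p = 3.85e-08). D1709N minus wild type was 0.10 for Lefty2 (limma adjusted p = 0.431) and 0.19 for Pmp22 (0.561), so neither was called in D1709N, while E1813Q lay 1.23 and 1.34 above wild type.

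Csf1, the growth factor of macrophages, read 8.42 and 8.29 in D1709N, 9.28 and 9.28 in E1813Q, and 7.85 and 7.89 in wild type (log2 difference -0.93, limma adjusted p = 2.53e-06). Car4, a membrane carbonic anhydrase, read 9.90 and 9.89 in D1709N against 10.74 and 10.82 in E1813Q, with wild type at 9.62 and 9.71 (-0.89, limma adjusted p = 0.00132). Both were highest in E1813Q. Cxcl16, a chemokine (-0.81), and Anxa3, a calcium-dependent membrane-binding protein (-0.80), were highest in E1813Q too, and for Cxcl16 the D1709N arrays (7.75 and 7.43) lay on both sides of wild type (7.65 and 7.58).

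A second kind of difference had D1709N below both E1813Q and wild type. Ccn1, a matrix-associated signalling protein, read 10.78 and 10.65 in D1709N, 11.53 and 11.45 in E1813Q, and 11.84 and 11.81 in wild type (log2 difference -0.78, SE 0.0738, limma adjusted p = 1.82e-07). Thbs1, thrombospondin-1, read 9.44 and 9.19 in D1709N, 10.21 and 10.17 in E1813Q, and 10.81 and 10.78 in wild type (-0.88, SE 0.233, limma adjusted p = 0.0161). In both genes the mutants stood in the same order below wild type. Acss1, a mitochondrial acetyl-CoA synthetase, read 7.998 and 7.994 in D1709N against 8.69 and 8.91 in E1813Q and 8.87 and 8.84 in wild type (-0.80, limma adjusted p = 4.68e-04). E1813Q minus wild type was -0.06 for Acss1 (0.771). Kdelr3 (-0.78) and the sialyltransferase St8sia6 (-0.74) were also lowest in D1709N. Thbs1, Ankrd12 (-0.87), Fermt1 (-0.85), Cxcl16 and Kdelr3 lost their calls when at least 1 particular array was left out.

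**Figure D4:**
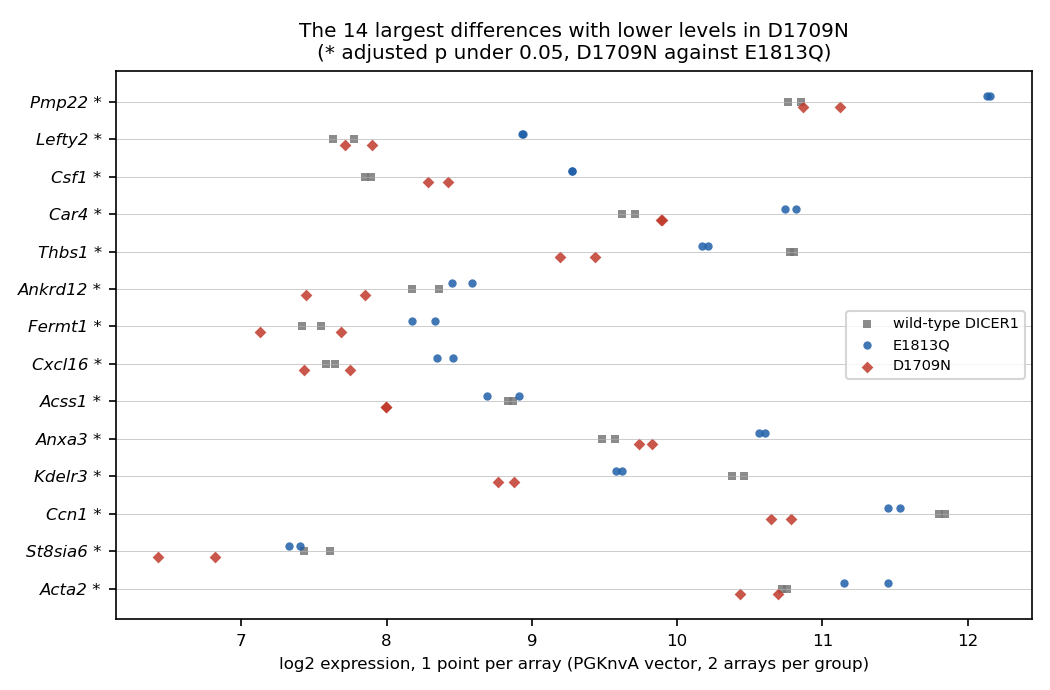
Log2 expression of the 14 largest called differences with lower levels in D1709N among the genes that the naming rule admits (small RNA genes and predicted genes are left out), 1 point per array (n = 2 arrays per group). E1813Q stands to the right of both other groups for Pmp22, Lefty2, Csf1 and Car4, and D1709N stands to the left of both for Thbs1, Acss1, Kdelr3, Ccn1 and St8sia6.

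Counted over all 1525 called genes, neither mutant was the one that alone departed from wild-type DICER1. For 441 genes only D1709N was called against wild type, for 474 only E1813Q, for 414 both in the same direction and for 24 both in opposite directions. The remaining 172 were called in neither. The wild-type mean lay between the mutants for 625 genes, below both for 460 and above both for 440. Among the 13 genes at least 1.5-fold higher in D1709N, 7 were called only in D1709N against wild type and 1 only in E1813Q. Among the 34 genes at least 1.5-fold lower, 9 were called only in D1709N and 12 only in E1813Q. These classes use the same 6 arrays as the calls themselves and are a description.

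Genes of the contractile and cytoskeletal programme, which the factors SRF and YAP activate, were lower in D1709N. Of 25 tested members 8 were called lower and 0 higher, against 4.87% lower among all genes, and 22 of the 25 differences were below 0, with a median of -0.23. Acta2, smooth muscle actin, read 10.69 and 10.44 in D1709N, 11.15 and 11.45 in E1813Q, and 10.72 and 10.76 in wild type (log2 difference -0.73, limma adjusted p = 2.2e-04). Here E1813Q stood above both others. Besides Acta2 and Ccn1, Axl, a receptor tyrosine kinase (-0.42), the tropomyosin Tpm2 (-0.33), Amotl2 (-0.29) and Tagln2 (-0.23) were lower. When 1 of the 4 arrays was left out, between 4 and 5 members were called lower, and 13 were with the 4 arrays fitted alone.

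Immediate early genes respond to growth factors within minutes. Of 23 tested, 6 were called lower and 0 higher (median -0.14), against 4.87% lower among all genes. The differences were below 0 for 15 of the 23 and above 0 for 8, with the highest, 0.42, not called. Jun read 9.47 and 9.24 in D1709N, 9.99 and 9.97 in E1813Q, and 9.94 and 9.93 in wild type (log2 difference -0.63, SE 0.126, limma adjusted p = 0.00216). For Jun the E1813Q and wild-type arrays were close and D1709N was low. Klf6 (-0.37), Dusp1, a phosphatase of MAP kinases (-0.37), Zfp36 (-0.36), Maff (-0.35) and Junb (-0.28) made up the rest. Between 2 and 5 were called lower when 1 array was left out, with 1 called higher without E1813Q replicate 1.

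Trophoblast and epithelial genes were lower in D1709N as well. Of 17 trophoblast genes 7 were called lower and 0 higher (median -0.24), and of 22 epithelial and keratin genes 8 were lower and 0 higher (median -0.16). That is 41.2% and 36.4% of members, against 4.87% of all genes called lower. Krt18, a simple-epithelium keratin in both lists, read 11.60 and 11.60 in D1709N, 12.12 and 12.17 in E1813Q, and 10.87 and 10.91 with wild-type DICER1 (log2 difference -0.55, limma adjusted p = 6.47e-05). Rhox9, a homeobox gene of the X chromosome, read 11.01 and 11.01 against 11.50 and 11.55, with 10.49 and 10.52 in wild type (-0.51, limma adjusted p = 1.79e-08). Both mutants lay above wild type in Krt18 and Rhox9, and E1813Q lay farther. Hand1, a trophoblast and mesoderm factor, read 8.73 and 8.77 in D1709N, 9.10 and 9.17 in E1813Q, and 7.84 and 7.95 in wild type (-0.38, limma adjusted p = 0.0261). The call of Hand1 was lost whichever of the 4 arrays was left out. Rhox6 (-0.36), Tead4 (-0.35), Krt7 (-0.25) and Tfap2c (-0.23) completed the trophoblast calls. Among the trophoblast factors that were not called, Cdx2 differed by -0.16 with overlapping arrays (limma adjusted p = 0.431) and Gata3 by -0.42 (0.0698). Krt19 (-0.46), Dsp, a desmosome component (-0.45), Cldn4 (-0.41), Pof1b (-0.40), Cldn6 (-0.14) and Cdh1 (-0.13) were further epithelial calls. Leaving out 1 array left between 4 and 6 trophoblast and between 3 and 7 epithelial calls, all lower.

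Summed over the trophoblast list on the linear scale, the signal was between 31310 and 31660 in D1709N and between 35940 and 35960 in E1813Q. Fibroblast and feeder markers, of which 8 of 18 lay below the filter level, summed to between 3852 and 4173 in D1709N and between 5007 and 5564 in E1813Q, and Acta2 was their only called member of 10 tested. Sums for endoderm genes were 18110 to 18450 against 19030 to 19460, and for mesoderm genes 3440 to 3471 against 3488 to 3611. For primed epiblast genes they were 13590 against 14500 to 14640, and for pluripotency factors 94430 to 96110 against 93220 to 93870. Abundant members, such as Acta2, Krt18 and Rhox9, weigh most in such linear sums, which therefore do not describe each list as a whole. The part of other cell types in the differences above was not tested. In such bulk samples fewer cells of a type and less RNA per cell cannot be told apart.

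Matrix and adhesion genes went both ways. Of 36 tested, 3 were called higher and 7 lower (27.8% called, against 10.9% of all genes, median -0.11). Thbs1, Timp2 (-0.46), the integrin Itgav (-0.28) and fibronectin Fn1 (-0.19) were lower, and Timp1, an inhibitor of matrix proteases, was higher. Timp1 read 10.54 and 10.65 in D1709N against 10.30 and 10.24 in E1813Q (0.32, limma adjusted p = 0.00284), while wild type was at 10.65 and 10.74, near D1709N. Without D1709N replicate 2 or without E1813Q replicate 2, 1 matrix gene was called lower. Annexins and S100 proteins, calcium-binding proteins at membranes and a list written after the values were seen, had 5 of 17 lower and 0 higher. That is 29.4% called, against 10.9% of all genes, namely Anxa3, S100a1 (-0.69), Anxa2 (-0.58), Anxa5 (-0.49) and S100a13 (-0.31).

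Reported targets of miRNAs are the readout closest to DICER1 function that these arrays hold. Mature sequences of the families that the main target lists are named for are shown with the seed, bases 2 to 8, in capitals (RefSeq, GRCm38.p6).
mmu-miR-291a-3p: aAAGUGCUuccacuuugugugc
mmu-miR-294-3p: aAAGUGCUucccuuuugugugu
mmu-miR-295-3p: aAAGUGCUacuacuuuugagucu
mmu-miR-302b-3p: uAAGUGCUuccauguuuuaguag
mmu-miR-302d-3p: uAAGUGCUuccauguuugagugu
mmu-let-7a-5p: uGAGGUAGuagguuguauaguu
mmu-let-7g-5p: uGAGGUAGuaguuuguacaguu
The first 5, from 3′ arms, share the seed AAGUGCU, and both let-7 miRNAs, from 5′ arms, share GAGGUAG.

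Of 23 tested genes reported as miR-290 or miR-302 targets, 1 was called higher in D1709N and 3 lower (17.4% called, against 10.9% of all genes), with a median of -0.10. Pfn2, an actin-binding profilin, read 9.19 and 9.10 in D1709N, 8.69 and 8.66 in E1813Q, and 8.22 and 8.24 with wild-type DICER1 (0.47, limma adjusted p = 5.98e-04). Lefty2, Tgfbr2, a TGF-beta receptor (-0.27), and Arhgef17 (-0.19) were lower. Lefty1, a related Nodal antagonist, read 10.26 and 10.29 in D1709N, 10.63 and 10.62 in E1813Q, and 8.90 and 8.97 in wild type. Its arrays did not overlap between the mutants, yet the difference of -0.36 (SE, 0.159) was not called (limma adjusted p = 0.161). Both mutants were above wild type in Lefty1, by 1.34 and 1.69.

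Of 23 tested let-7 targets 4 were called higher in D1709N and 2 lower (26.1% called, against 10.9% of all genes), with a median of 0.12. Ccnd1, another D-type cyclin, read 11.98 and 11.94 in D1709N, 11.58 and 11.72 in E1813Q, and 10.80 and 10.83 in wild type (0.31, limma adjusted p = 0.0321), the order already seen for Ccnd2. Nras (0.20) and Cdk6, the kinase partner of D-type cyclins (0.17), were the other higher members, and Arid3a (-0.29) and Plagl2 (-0.21) were lower. Standard let-7 targets such as Hmga2 (-0.02), Lin28a (0.08), Lin28b (0.12) and Trim71 (0.11) were not called. Among 20 targets of miR-17 and miR-106, 4 were higher and 3 lower (35% called, median 0.02), Ccnd2 and Ccnd1 among the higher and the retinoblastoma gene Rb1 (-0.35) among the lower. Of 25 genes of miRNA processing, Ran, which drives nuclear export (-0.45), and Ago2, the Argonaute that slices targets (-0.18), were lower and 0 were higher. With all probe sets of a symbol averaged, Ago2 differed by -0.07 and was not called (limma adjusted p = 0.431).

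The G1-S and replication list shares the cyclins with these target lists. Of its 38 tested genes 8 were called higher and 1, Rb1, lower (23.7% called, against 10.9% of all genes, median 0.09). The higher ones were Ccnd2, Ccnd1, Cdk6, the replication licensing factors Cdc6 (0.29), Mcm5 (0.27) and Mcm6 (0.16), Gins1 (0.23) and Pcna (0.14). In contrast, 0 of 25 mitosis genes were called by limma, with 7 at an unadjusted p under 0.05 and differences between -0.16 and 0.16. Among all 13956 genes tested, 3526 were at an unadjusted p under 0.05.

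Of 18 tested germline genes 5 were called higher in D1709N and 0 lower (median 0.08), against 6.05% higher among all genes. Hormad1, of meiotic chromosome axes, read 9.10 and 9.32 in D1709N, 8.58 and 8.74 in E1813Q, and 9.86 and 9.33 in wild type (0.55, limma adjusted p = 0.00289). Dazl, a germ cell RNA-binding protein, read 7.68 and 7.51 in D1709N against 7.25 ± 0.06 (SD, n = 2) in E1813Q, with wild type far above at 8.97 and 8.93 (0.35, limma adjusted p = 0.013). Both mutants were below wild type in Dazl, and E1813Q was the lower. Tex19.1 (0.34), Mael (0.32) and Mov10l1 (0.27) were the other calls. Between 1 and 3 germline genes were called higher when 1 array was left out, and 2 were higher and 1 lower with the 4 arrays fitted alone.

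Of 30 tested pluripotency factors 5 were called (16.7%, against 10.9% of all genes). These were Eras, an ES cell Ras protein (0.52), L1td1 (0.29), Nr0b1 (0.21) and Stat3 (0.18), which were higher, and Tbx3 (-0.25), which was lower. Eras read 8.12 and 8.01 in D1709N, 7.52 and 7.58 in E1813Q, and 8.18 and 8.15 with wild-type DICER1, so that E1813Q was the group that stood apart. Under quantile normalization 3 were higher and 4 lower, and between 1 and 4 were higher when 1 array was left out. Of 22 DNA methylation genes 6 were higher, by at most 0.23, and 1, Tet3, was lower (-0.34). The 6 were Cbx1, Cbx5, Ehmt2, Hells, Setdb1 and Uhrf1, of heterochromatin and maintenance methylation, and under quantile normalization 2 were higher.

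Imprinted genes had 1 of 25 called higher and 4 lower (20% called, against 10.9% of all genes, median -0.02). Igf2, a fetal growth factor, read 12.23 and 12.25 in D1709N, 12.76 and 12.83 in E1813Q, and 11.10 and 11.02 in wild type (log2 difference -0.56, SE 0.164, limma adjusted p = 0.0291). Both mutants exceeded wild type and E1813Q did so by more. The call of Igf2 was lost whichever of the 4 arrays was left out. Sgce read 9.48 and 9.54 in D1709N, 9.87 and 9.92 in E1813Q, and 9.61 and 9.57 in wild type (-0.39, limma adjusted p = 1.73e-04). Grb10, an adaptor that restrains insulin signalling, was the higher member (0.36, limma adjusted p = 0.00128), and Igf2r and Slc38a4 were each -0.18.

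Signalling lists were mixed, where 6.05% of all genes were called higher and 4.87% lower. In the Nodal, TGF-beta and BMP pathway 1 of 30 was higher, the pseudoreceptor Bambi (0.28), and 4 were lower, Lefty2, Bmp7 (-0.46), Tgfbr2 and Smad7 (-0.25). Bmp7 read 8.29 and 8.29 in D1709N, 8.73 and 8.76 in E1813Q, and 8.47 and 8.43 in wild type. Among 22 ERK output genes 3 were higher, with Spred1 at 0.37 and Etv1 at 0.24, and 3 lower, with Dusp5 at -0.38 and Hbegf at -0.29. Of 28 Wnt pathway genes Lrp5 (-0.35) was lower and 0 were higher.

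Metabolic, stress and remaining lists are given against the 10.9% of all genes called (6.05% higher and 4.87% lower). Of 31 glycolysis and hypoxia genes Hk2, hexokinase (0.29), was higher and 4 were lower (16.1% called), led by Aldoc, an aldolase (-0.64). Of 25 sterol and fatty acid synthesis genes 0 were higher and 4 lower (16%), Srebf1 (-0.26), Sc5d (-0.22), Scd2 (-0.21) and Fdps (-0.21). Nqo1, a quinone reductase of the NRF2 response, read 9.32 and 9.44 in D1709N, 8.81 and 8.93 in E1813Q, and 8.50 and 8.53 in wild type (0.51, limma adjusted p = 0.00422). Gpx2 (0.43) was also higher and Gstm1 (-0.31) lower among 22 oxidative stress genes (13.6%). Ribosomal proteins had 0 of 21 called by limma and 4 at an unadjusted p under 0.05, retinoic acid and Hox genes 0 of 16 and 1. Among all 13956 genes, 3526 were at such an unadjusted p. B2m, the light chain of MHC class I (-0.42), was the 1 call among 12 housekeeping controls. Interferon genes had Ddx58 (0.38) and Irf9 (0.29) higher of 12 (16.7%), two-cell-stage genes Arg2 (0.44) and Eif1a (0.27) of 3 (66.7%), and p53 genes Apaf1 (-0.27) and Trp53inp1 (-0.16) lower of 23. Of 28 Polycomb genes 2 were higher and 2 lower, and of 20 primed epiblast genes 1 and 2. Endoderm genes had 1 higher and 2 lower of 21, and mesoderm genes 0 and 1 of 18.

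**Figure D5:**
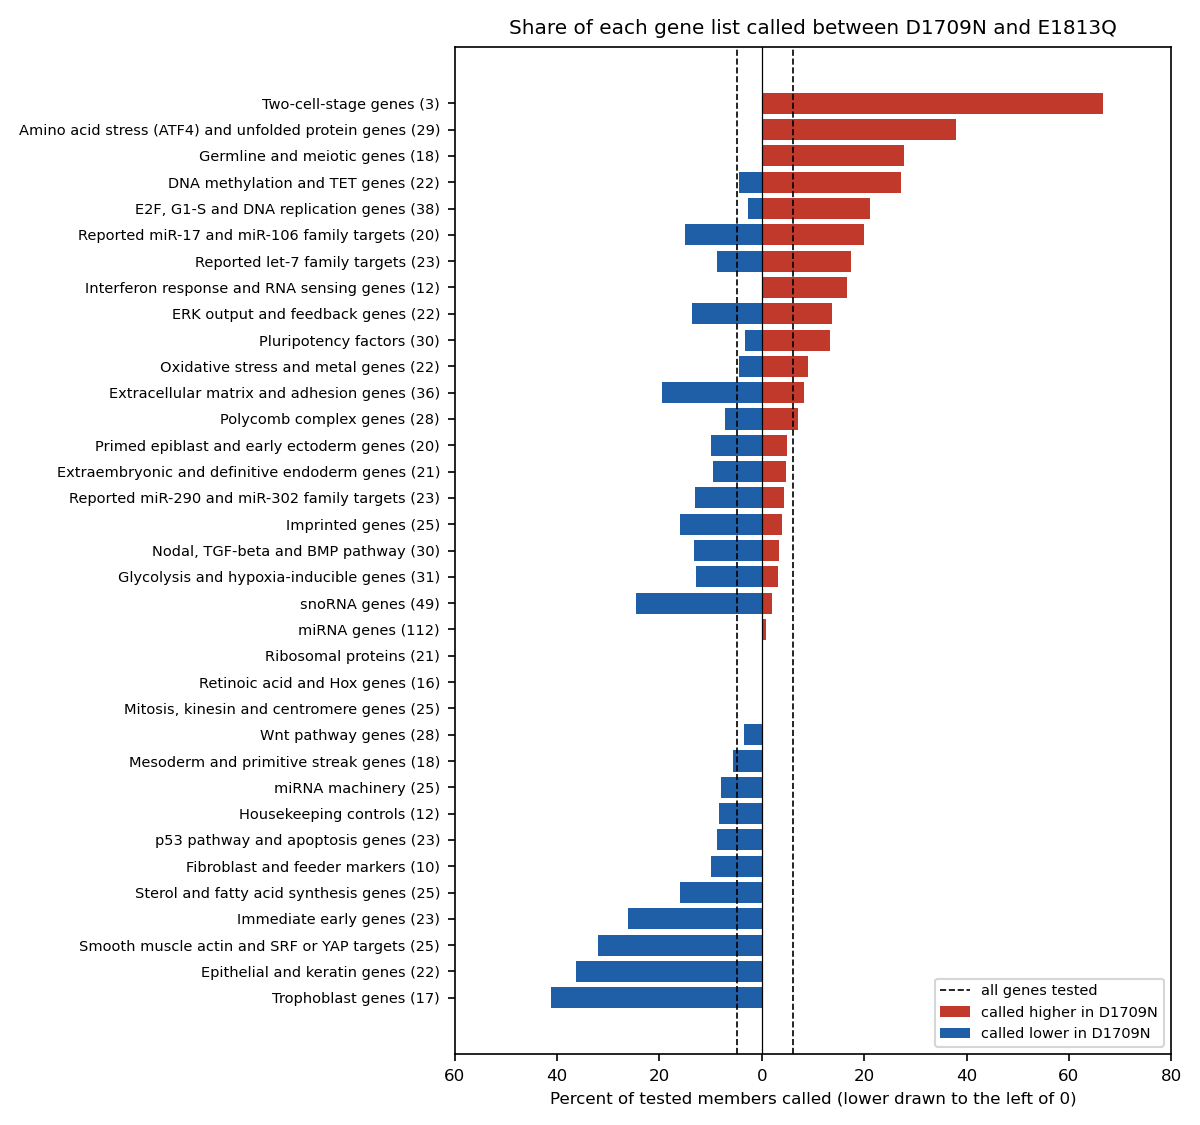
Percent of the tested members of each of the 33 lists and of the snoRNA and miRNA genes (number in parentheses) called higher in D1709N, drawn to the right, or lower, drawn to the left, with the shares of all genes tested (6.05% and 4.87%) as dashed lines. The ATF4 list reaches to the right and the trophoblast, epithelial, SRF or YAP and immediate early lists to the left. The longest bar to the right rests on 3 genes. The lists written after the values were seen are not drawn, among them the cytosolic synthetases with 71.4% called.

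Small RNA genes were read by their own probe sets. Of 49 tested snoRNA genes 1 was called higher and 12 lower (26.5% called against 10.9% of all genes), with a median of -0.12. Their products guide modification of ribosomal and other RNAs. Against wild-type DICER1, 2 of the 49 were called higher and 39 lower in D1709N (median -0.48). In E1813Q 1 was called higher than wild type and 33 lower (median -0.34). Among all genes the shares were 21.5% higher and 18.5% lower in D1709N, and 21.1% and 19.5% in E1813Q. Snora44 was called higher than wild type in both mutants, unlike most of the list. Snora44 read 10.04 and 9.67 in D1709N, 10.90 and 10.93 in E1813Q, and 9.20 and 9.75 with wild-type DICER1 (log2 difference -1.06, SE 0.118, limma adjusted p = 2.28e-06), or 2.09-fold lower in D1709N. Snora33 (-0.54), Snora30 (-0.41) and Snord118 (-0.40) were next, and Snord14e was higher (0.19). Between 6 and 10 were called lower when 1 array was left out. Of 112 tested miRNA genes 1, Mir674, was called higher and 0 lower (0.893%). Among these 112, 14 were at an unadjusted p under 0.05, against 3526 of all 13956 genes. Without the expression filter 8 of 300 were called, 3 higher and 5 lower (2.67% against 7.56% of all genes). These probe sets were designed on miRNA gene loci, and mature miRNA levels were not measured here. The genes were taken by symbol, so host gene transcripts such as Mir17hg and Mir99ahg are among them.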

How the data were processed

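The deposited table held log2 expression values for 35556 probe sets on 28 arrays, made with RMA (background correction, normalization between arrays and probe summary) and Partek 6.6 per the submitters' processing notes. Their settings are not recorded in the labels. The number of arrays limits the precision. Probe sets with 1 symbol in the platform annotation (21789, while 1621 had several and 12146 none) gave 19938 symbols, each represented by its probe set of highest mean. Genes under the 30th percentile of mean level (6.42) were left out, which left 13956, of which 13915 matched a RefSeq gene ID (GRCm38.p6).

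The 28 arrays, in 10 groups, were fitted together with limma 3.58.1 (R 4.3.3, 18 residual degrees of freedom, mean-variance trend), with two-sided tests and Benjamini-Hochberg adjustment over all genes tested. A gene was called at an adjusted p under 0.05. Values of some other groups obey exact linear relations (3 singular values of at most 0.00233, the next 24.1), and the means of wild-type DICER1 in both vectors are equal. The 4 compared arrays take no part in them, but the pooled spread does, so p-values are approximate. Both wild-type arrays of the PGKnvA vector take part, so differences from wild type and the position of wild type between the mutants are affected in value too.

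The rule for named genes took Dicer1, the 14 largest rises and 14 largest falls among called genes whose arrays do not overlap between the mutants (leaving out predicted, miRNA, snoRNA and receptor-segment genes) and up to 3 called members of each of 33 lists. Other list members, 5 further lists and Snora44 were named after their values were seen. Members and lists were chosen with earlier results of these data known. Alternatives covered the filter, scaling, model, probe choice, replicate block and each left-out array.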

Additional observations from a re-analysis of the deposited data

Results flagged for a closer look

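The mean level of the 21 cytosolic aminoacyl-tRNA synthetase genes in the 4 arrays of wild-type DICER1 in the ENvA vector had 1 array far from the others, at 11.21 (11.2058), while the lowest was 11.03 and the group mean 11.08 ± 0.09 (SD, n = 4). How often chance sets apart 1 array of such a group was not tested. D1709A, also in the ENvA vector, had its lowest array at 11.05, below a group mean of 11.18 ± 0.09 (SD, n = 4). Arrays of both groups take part in the exact relations between arrays, so they are not independent. Through the equal means of both wild-type groups, the wild-type level of the PGKnvA vector (11.08 ± 0.01, n = 2) is tied to the array at 11.21. The direct comparison of D1709N with E1813Q uses it through the pooled spread alone.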

How the results depend on the processing

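The count of 1525 called genes became 931 with the 4 arrays fitted alone and ranged from 862 to 1047 when 1 array was left out, with 393 higher and 540 lower without D1709N replicate 1, 684 and 363 without D1709N replicate 2, 498 and 429 without E1813Q replicate 1, and 520 and 342 without E1813Q replicate 2. The balance of directions thus turned without D1709N replicate 1, and 717 to 800 of the 1525 genes kept their call and sign in these fits. Quantile normalization gave 901 higher and 915 lower. Without an expression filter 71 genes were called at least 1.5-fold instead of 47, and 55 to 74 were when 1 array was left out. Of those 47, between 38 and 43 stayed called with 1 array left out. Fitting only groups outside the exact relations, an alternative chosen after seeing the data, called 1926 genes. Same-numbered arrays of the mutants did not deviate together (correlation -0.02 over genes, 1 pair of deviations), and a replicate block gave 1573 called genes (875 higher and 698 lower), 1494 of them shared. Of 87 named genes apart from Dicer1, 37 were called in every alternative, 50 lost the call in at least 1, 25 of them only with an array left out, and 0 reversed. The calls of Apoe, Hand1, Igf2, Irf9, Lrp5, Spred1, Tet3 and Zfp521 were lost whichever array was left out. Without D1709N replicate 1, those of Fetub, Spink1, Fermt1, L1td1, Zic2, Serpinh1, Lama1, Ddx58, Arg2, Dazl, Tgfbr2, Ccnd1, Pcgf5, Pcgf3, Klf6, Bambi, Hk2, P4ha2, Srebf1 and Gpx2 were lost as well. Without D1709N replicate 2, those of Thbs1, Ankrd12, Cxcl16, Kdelr3, Tbx3, Serpinh1, Ddx58, Hormad1, Tex19.1, Tgfbr2, Ccnd1, Arid3a, Pcgf5, Pcgf3, Trp53inp1, Timp2, Dsp, Aldoc, P4ha2, Srebf1, Sc5d and Gstm1 were lost as well. Without E1813Q replicate 1, those of Fetub, Spink1, Thbs1, Fermt1, Cxcl16, Lama1, Ddx58, Tex19.1, Ccnd1, Arid3a, Cbx5, Pcgf5, Pcgf3, Bambi, P4ha2, Sc5d and Gpx2 were lost as well. Without E1813Q replicate 2, those of Ciart, Fam136a, Thbs1, Ankrd12, Fermt1, Kdelr3, L1td1, Tbx3, Zic2, Serpinh1, Lama1, Arg2, Dazl, Tex19.1, Tgfbr2, Ran, Cbx1, Pcgf6, Timp2, Dsp, Aldoc, Srebf1, Sc5d, Gpx2 and Gstm1 were lost as well. With all probe sets of a symbol averaged, Ago2, Hormad1 and Tet3 lost their calls. With the 4 compared arrays fitted alone, 20 of the 87 named genes lost their calls, Tbx3, Dazl, Cbx1, Apaf1 and Bambi among them. With the 6 PGKnvA arrays alone 13 did, with each array centred on its median 9, and without an expression filter 7. The cause of these changes was not tested, beyond the fewer arrays in the fits that left arrays out.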
